A study of Mus musculus with 24 samples.

Results

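Accessible DNA that lies outside genes, 1 to 10 kb before a transcription start site (TSS), was compared between aged and young mouse small intestinal epithelium. Peaks were chosen by the deposited annotation alone, as those of the class Intergenic whose centre lay 1000 to 10000 bp upstream of the nearest annotated TSS. The choice gave 10617 of 150646 consensus peaks (7.05%), or 20.2% of the 52501 intergenic peaks, upstream of 6328 genes. No intergenic peak lay closer than 1000 bp to a TSS, so the near bound removed none.

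The assay was ATAC-seq, which uses the transposase Tn5 to insert sequencing adapters where chromatin is open. The libraries were 3 of aged C57BL/6JRj mice (numbered 1, 2 and 4) and 3 of young C57BL/6JRj mice (1, 2 and 4), with no other treatment or allele in the labels. Epithelial cells came straight from the small intestine by EDTA and trypsin digestion and were sorted as EpCam+ and CD45-, a gate that keeps epithelium and removes leukocytes. The labels say only aged and young. The design text of the series gives 20 to 22 and 2 to 3 months, in sentences about other assays, and whether each library came from its own mouse is not stated, so p-values measured the spread between libraries.

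Regions shortly upstream of a gene often hold enhancers, stretches of DNA that bind transcription factors and raise the activity of a promoter nearby or far away. In the small intestine such elements are bound by factors of the HNF4, CDX, GATA and KLF families, which hold absorptive identity, while AP-1 and NF-kB carry stress and inflammatory signals. The CTCF protein binds at borders between regulatory neighbourhoods. The nearest gene is a label of position, and which gene an upstream peak acts on was not measured.

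Total counts in peaks were 16900796 to 23935291 in the aged libraries and 6149680 to 22819924 in the young ones. Young 4 was the shallowest by 3.89-fold against the deepest library and lay farthest out on the first principal component, which held 37.9% of the variance. In that library the median count per near-upstream peak was 13, against 33 to 50 in the other libraries. Promoter peaks of 10 of 12 epithelial marker genes summed to 506 to 554 CPM (TMM-scaled CPM, computed from the deposited counts) in aged and 502 to 585 CPM in young. Of 18 leukocyte markers only 1 had a promoter peak, with 17.9 to 18.3 CPM in aged and 16.1 to 19.1 CPM in young, and 17 had none. Promoter peaks of 7 of 20 stromal, endothelial and neural markers summed to 24.5 to 26.3 CPM in aged and 24.2 to 26.6 CPM in young, and no promoter peak of the 3 lists was called. Bulk libraries cannot tell fewer cells of a type from less accessibility per cell.

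Peak sequences could be read only where a RefSeq promoter window (250 bases before to 50 after a start, GRCm38.p6) overlapped a peak. That held for 171 of the 10617 peaks, and 126 of these contain the RefSeq start itself, a start that the deposited annotation did not use. Of the 171, 163 were tested, 3 called higher (background over all peaks 1.07%) and 2 lower (0.528%) in aged. The overlapping stretches of these 5 are shown 5′ to 3′ on the strand of the RefSeq gene, because they are the called peaks whose letters the reference gives. Capitals mark matches on either strand to CCNCNCCC, the KLF/SP motif, or TTCNNNGAA, the STAT motif. They are, in order, the peak 3170 bp before Mir7216 (at the start of Gm10505, chr17:27324989-27325195, plus strand), the peak 9384 bp before Cmtm8 (at the start of Gm30448, chr9:114853664-114853759, minus strand), the outer Cdsn peak (chr17:35542923-35543100, plus strand), the peak before Gm13522 (chr2:52378429-52378593, plus strand) and the peak nearest to RP23-410M21.3 (at the start of Gm50598, chr5:109466935-109467101, plus strand).
Gm10505 start, lower in aged: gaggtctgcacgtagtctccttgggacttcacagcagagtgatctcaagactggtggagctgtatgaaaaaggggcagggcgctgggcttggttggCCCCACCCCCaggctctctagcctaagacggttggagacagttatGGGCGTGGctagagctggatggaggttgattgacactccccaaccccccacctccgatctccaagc
Gm30448 start, higher in aged: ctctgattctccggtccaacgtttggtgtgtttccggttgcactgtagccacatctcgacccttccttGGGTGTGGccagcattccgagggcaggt
Cdsn, higher in aged: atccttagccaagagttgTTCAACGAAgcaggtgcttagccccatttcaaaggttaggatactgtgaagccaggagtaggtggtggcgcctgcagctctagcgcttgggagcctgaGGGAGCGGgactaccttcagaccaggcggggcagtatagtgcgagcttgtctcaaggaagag
Gm13522, higher in aged: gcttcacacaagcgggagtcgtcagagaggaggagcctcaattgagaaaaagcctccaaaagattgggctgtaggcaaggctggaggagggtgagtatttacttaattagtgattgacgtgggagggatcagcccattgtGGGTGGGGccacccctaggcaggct
Gm50598 start, lower in aged: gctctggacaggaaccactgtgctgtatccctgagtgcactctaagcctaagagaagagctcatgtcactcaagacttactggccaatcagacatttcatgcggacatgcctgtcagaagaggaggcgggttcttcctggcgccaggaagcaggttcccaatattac

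The KLF/SP letters stood in 4 of the 5 stretches, and 49.5% of all 32817 promoter windows hold them, so they are common. The Gm50598 stretch held none of the 11 motifs searched. Among the 148 windows that overlap a near-upstream peak, the AP-1 letters TGANTCA stood in 18 (12.2%), against 7.81% of all windows. An overlapping window can reach beyond the peak, so letters in it may lie outside the peak. The CTCF motif stood in 11 of the 148 windows (7.43%) and in 2.43% of all windows. The HNF4 letters CAAAGTCCA stood in 0 of the 148 and in 0.475% of all windows. The CDX letters TTTATNG stood in 6.76% of the 148 and 10.9% of all windows, and the GATA letters GATAAG in 4.73% and 7.45%. Motifs were searched on both strands and may overlap each other, and these shares are a description with no test.

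MicroRNA genes were the nearest genes of 291 near-upstream peaks, of which 250 were tested, 4 called higher (background 1.07%) and 2 lower (background 0.528%) in aged. The mature RNAs of the 3 named microRNA genes with called upstream peaks, and of Mirlet7b, the let-7 gene next to Mirlet7c-2, are given from RefSeq (GRCm38.p6) with the seed, bases 2 to 8, in capitals. The seed is the stretch by which a microRNA pairs with its target messenger RNAs. The 5p RNAs of Mirlet7c-2 and Mirlet7b share the let-7 seed GAGGUAG, their 3p RNAs share the seed UAUACAA, and the others each have their own.
let-7c-5p: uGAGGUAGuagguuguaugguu
let-7b-5p: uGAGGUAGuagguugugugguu
let-7c-2-3p: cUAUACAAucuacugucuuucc
let-7b-3p: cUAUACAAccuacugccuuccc
miR-7216-5p: uGGAGAGCuggcagaggacccaga
miR-7216-3p: uGGAAUUUggucuuuuccggc
miR-688: uCGCAGGCgacuacuuauuc

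Near-upstream peaks were short and weak next to promoters. Their median width was 205 bp (71 to 1859 bp), and their median accessibility was 2.08 CPM per peak, against 2.06 CPM over all peaks and 8.52 CPM in the promoter-TSS class. Per kb of peak the medians were 9.81 CPM in near-upstream peaks, 8.99 CPM in all peaks and 22.3 CPM at promoters. Protein-coding genes were nearest for 63.3% of the peaks, processed pseudogenes for 10.7% and lincRNA genes for 9.02%. Of the 6328 genes, 3675 had 1 such peak, 2521 had 2 to 4 and 132 had 5 or more. The low-count filter kept 9270 peaks (87.3%) for testing, and the 1347 others had a median of 0.385 CPM.

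As a class, near-upstream accessibility was about the same at both ages. These peaks held 5.43%, 5.45% and 5.52% of all peak counts in aged 1, 2 and 4, against 5.25%, 5.49% and 5.56% in young 1, 2 and 4. The young values enclosed the aged ones, with means of 5.47% ± 0.0510 in aged and 5.43% ± 0.161 in young (SD, n = 3 each; difference 0.0361 points). An exact two-sided permutation test gave p = 0.900 (adjusted 1 over a family of 7 such measures), where the smallest p this design allows is 0.1. The log2 ratio of their counts to those of intergenic peaks 10 to 100 kb from a TSS was -1.383 ± 0.0158 in aged and -1.384 ± 0.0290 in young, with p = 1 by exact permutation. The median log2 fold change, aged over young, was 0.005 over the tested near-upstream peaks and -0.004 over all tested peaks.

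A small number of single peaks changed with age, more often upward, as over all peaks (70.1% of the near-upstream calls and 67.1% of all calls were higher). Of the 9270 tested, 82 (0.885%) were called higher in aged and 35 (0.378%) lower, in edgeR's quasi-likelihood F test at a Benjamini-Hochberg adjusted p below 0.05, taken over all tested peaks. The shares over all 129588 tested peaks were 1.07% higher and 0.528% lower, or 1.60% in either direction, so near-upstream peaks lay below the background in both. All 3 aged libraries stood above all 3 young ones at 728 near-upstream peaks (7.85%, background 7.32%) and below them at 605 (6.53%, background 6.54%), together 14.4% against a background of 13.9%. With the replicate number as a block, 174 were called higher (1.88%, background 1.99%) and 90 lower (0.971%, background 1.10%), among them all 117 calls of the fit without the block. Without young 2 the higher calls numbered 45. Without the shallow young 4 they numbered 91, with 35 lower.

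The peaks that rose were of moderate strength, and most of those that fell were weak in aged. Peaks called higher had a median of 4.44 CPM in aged and 1.88 CPM in young, with a median log2 fold change of 1.15. Over 2-fold changes made up 53 of these 82, and a single one, upstream of Guca2a, exceeded a mean of 20 CPM. Peaks called lower had a median of 0.660 CPM in aged and 2.47 CPM in young, with a median log2 fold change of -1.73, and 32 of 35 exceeded 2-fold. In 24 of those 35 the aged mean was under 1 CPM. These medians describe peaks that the test selected.

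**Figure D1:**
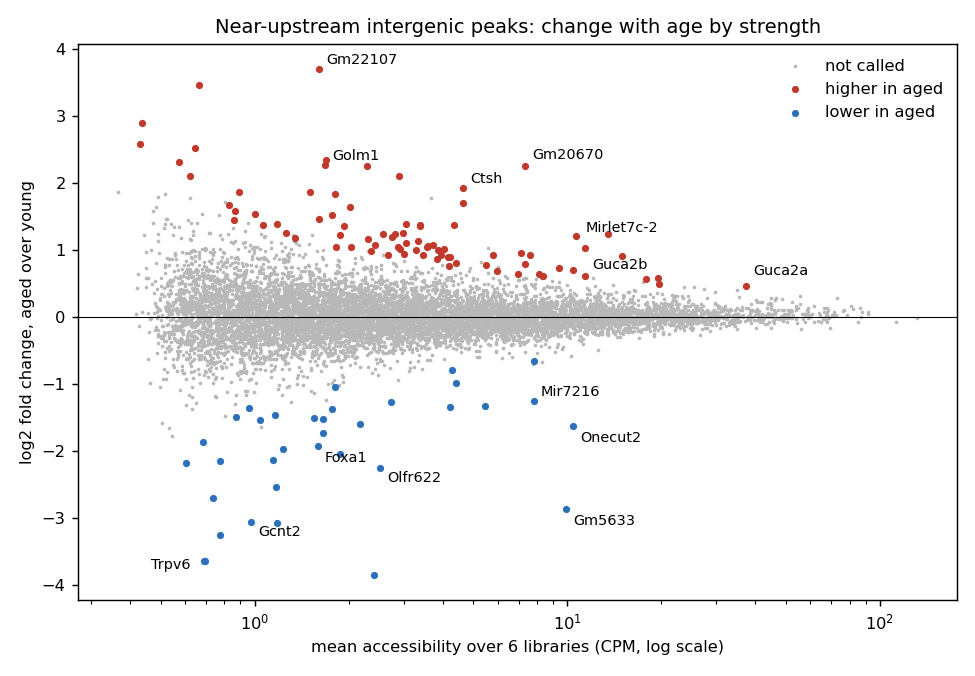
Log2 fold change (aged over young) of each of the 9270 tested near-upstream peaks against its mean CPM over the 6 libraries (log scale), with called peaks in red (82 higher in aged) and blue (35 lower). Calls spread over weak and moderate peaks, and among peaks above 20 CPM only the one upstream of Guca2a was called.

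From the 1 to 2 kb band outward, the share of peaks called higher grew with distance from the TSS. It was 0.487% at 1 to 2 kb (7 of 1436), 0.761% at 2 to 5 kb (25 of 3283) and 1.10% at 5 to 10 kb (50 of 4551). In intergenic peaks 10 to 100 kb from a TSS, on either side, it was 1.53%, and beyond 100 kb 1.84%. The promoter-TSS class stood outside this order, with 0.604% called higher and 0.863% lower. The share called lower showed no such order, at 0.487%, 0.335% and 0.374% in the 3 near-upstream bands, 0.324% at 10 to 100 kb and 0.922% beyond. Intergenic peaks 1 to 10 kb downstream of a TSS had 1.65% called higher and 0.508% lower, so the upstream side had the smaller share of both. Median strength moved along with distance, from 2.57, 2.33 and 1.81 CPM in the 3 bands to 1.61 and 1.27 CPM farther out, and its part in the shares was not tested. The difference in shares between classes was not tested either, since peaks are not replicates.

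**Figure D2:**
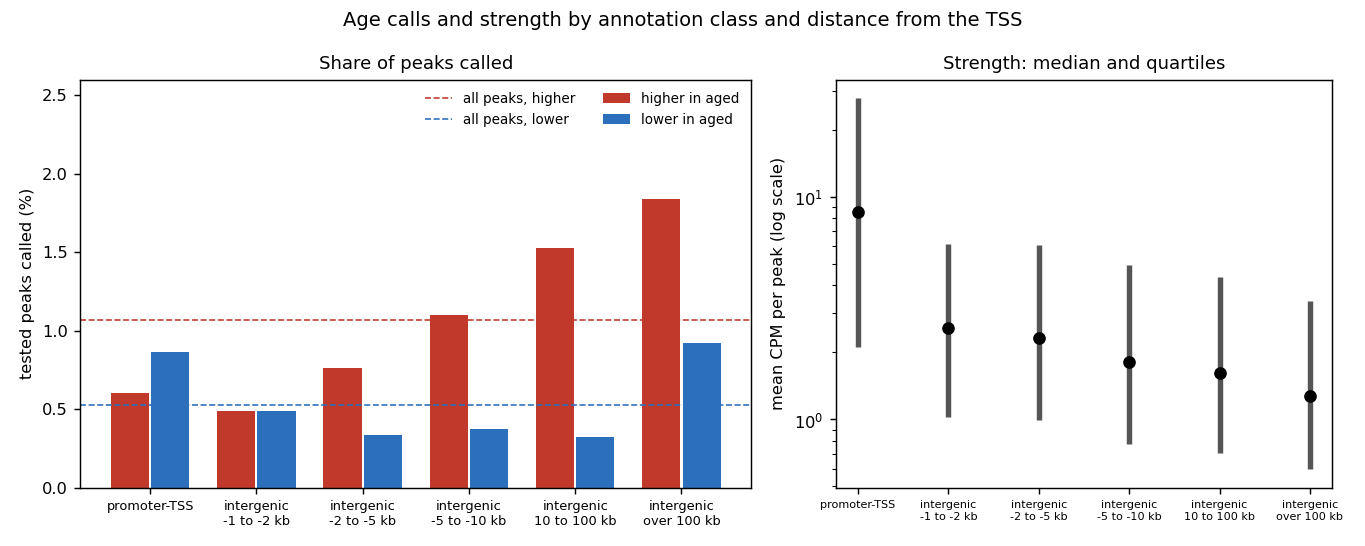
Left, percent of tested peaks called higher (red) and lower (blue) in aged by annotation class and distance from the TSS, with dashed lines at the background of all peaks (1.07% and 0.528%). Right, median (point) and quartiles (bar) of mean CPM per peak on a log scale; the red bars grow from 0.487% to 1.84% while the medians fall from 2.57 to 1.27 CPM over the intergenic classes.

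At matched strength, higher calls were nearest to the background in peaks of middle strength. Between 1.59 and 4.60 CPM, 1.39% of near-upstream peaks were called higher, against 1.37% of all peaks in that range. Among weaker peaks the shares were 0.518% of near-upstream peaks and 1.01% of all, and among stronger ones 0.744% and 0.882%. Lower calls lay below the background at each strength. They made up 0.550% against 0.660% of all among weaker peaks, 0.421% against 0.628% in the middle and 0.162% against 0.318% among stronger ones.

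The peak with the smallest adjusted p among those that rose lay 4959 bp upstream of the non-coding gene Gm20670 (chr7:64052432-64052854). It had 11.6, 12.2 and 12.3 CPM in aged 1, 2 and 4, against 2.11, 2.67 and 3.18 CPM in young 1, 2 and 4. The groups stood far apart, with a log2 fold change of 2.25 (SE 0.18; Benjamini-Hochberg adjusted p = 2.79e-10 in edgeR). Of the 9 other peaks tested within 50 kb of it, all had positive changes and 1 was called. The snRNA gene Gm22107 had a peak 4640 bp upstream with 3.14, 2.84 and 3.07 CPM in aged and 0.183, 0.347 and 0 CPM in young. Its counts in young were 4, 7 and 0, and its log2 fold change of 3.70 (SE 0.38) is that of a region nearly closed in young.

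Ctsh, the gene of the lysosomal protease cathepsin H, had the smallest adjusted p of any protein-coding gene among the peaks that rose. Its outer upstream peak (9158 bp from the TSS, chr9:90045237-90045556) had 7.77, 8.52 and 5.85 CPM in aged, against 1.74, 2.33 and 1.59 CPM in young. The lowest aged library was above the highest young one, and the log2 fold change was 1.92 (SE 0.21; Benjamini-Hochberg adjusted p = 2.95e-07 in edgeR). A second Ctsh peak at 6275 bp rose by 0.62 (SE 0.16, Benjamini-Hochberg adjusted p = 0.0289 in edgeR), with 10.1 ± 1.20 CPM in aged and 6.63 ± 0.643 CPM in young (SD, n = 3 each). That call was lost without aged 1, aged 2, young 1 or young 2, each left out alone, in DESeq2 (adjusted p = 0.0845) and with all libraries thinned to the shallowest (0.49, adjusted p = 0.464). The third tested peak, at 2605 bp, had 0.41 (SE 0.15, not called), and the Ctsh promoter peak 0.11, with 39.3 CPM in aged and 36.3 CPM in young. Within 50 kb of the outer peak, 8 of 9 other peaks, the Ctsh peaks above among them, had positive changes and 4 were called higher.

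Other protein-coding genes with raised upstream peaks were of mixed function. Pelp1, a coregulator of nuclear receptors, had 3.33, 3.30 and 4.71 CPM in aged and 0.824, 0.743 and 0.796 CPM in young at 2809 bp, a log2 fold change of 2.25 (SE 0.28). Golm1, which encodes a Golgi membrane protein, had 3.08, 2.92 and 2.04 CPM in aged and 0.503, 0.396 and 1.11 CPM in young at 8551 bp, a change of 2.27 (SE 0.34). Neither pair of groups overlapped, and the promoter peaks of these genes had -0.08 and 0.21, both not called. Of the other tested peaks within 50 kb, 4 of 10 near the Pelp1 peak and 5 of 14 near the Golm1 peak had positive changes. Lims2, a focal adhesion protein gene, rose by 1.83, and Thap7, a zinc finger gene, by 0.96. Pon3, a lipolactonase of the paraoxonase family, rose by 1.38 to 4.75 ± 1.47 CPM in aged, against 1.98 ± 0.645 CPM in young (SD, n = 3 each). Tjap1, a tight junction associated protein gene, rose by 1.06, Cmtm8 by 1.05 and Fam20a, a partner of a secretory pathway kinase, by 1.24. The adjusted p of these 8 genes ran from 2.53e-06 for Pelp1 to 0.00273 for Fam20a in edgeR after Benjamini-Hochberg adjustment. With all libraries thinned to the shallowest, the Golm1 call (1.48, adjusted p = 0.0906) and the Cmtm8 call (1.05, adjusted p = 0.0957) were lost in edgeR.

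Mki67, whose product Ki-67 marks dividing cells, had a peak at 5577 bp with 3.82, 3.76 and 4.03 CPM in aged and 1.19, 1.83 and 2.23 CPM in young. The groups did not overlap, and the log2 fold change was 1.24 (SE 0.24; Benjamini-Hochberg adjusted p = 0.00223 in edgeR; 0.0527 without young 1 and 0.115 after thinning). The Mki67 promoter peak had -0.07, at 38.2 CPM in aged and 39.6 CPM in young.

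Mirlet7c-2, a gene of the let-7 family of growth-restraining microRNAs, had the most near-upstream peaks of any gene, 9, and 2 of them rose. The peak at 7775 bp (chr15:85698633-85699023) had 16.6, 12.4 and 16.4 CPM in aged and 7.87, 5.84 and 4.94 CPM in young, without overlap. Its log2 fold change was 1.21 (SE 0.16; Benjamini-Hochberg adjusted p = 1.04e-05 in edgeR). The adjoining peak at 8073 bp had 1.13 (SE 0.23, Benjamini-Hochberg adjusted p = 0.00377 in edgeR; 0.0578 without young 1), and after thinning it had 0.42 (adjusted p = 0.867 in edgeR). The other 7, between 2038 and 5653 bp, had 0.15 to 0.63, all positive and not called, and the promoter peak had 0.51, with 10.1 CPM in aged and 6.86 CPM in young. Of 43 other peaks within 50 kb of the peak at 7775 bp, the Mirlet7c-2 peaks above among them, 32 had positive changes and 7 were called higher. The gene of the lipid-sensing nuclear receptor Ppara lies in the same stretch, and its near-upstream peak at 1770 bp had 0.44 (SE 0.23, not called).

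The guanylin and uroguanylin genes Guca2a and Guca2b, whose peptide hormones set salt and water secretion in the gut, lie next to each other and each had a raised upstream peak. They were chosen after their values were seen. The Guca2a peak at 6118 bp (chr4:119631122-119632051) was the strongest called peak, with 40.4, 43.2 and 47.1 CPM in aged and 28.9, 35.1 and 29.9 CPM in young. The Guca2b peak at 1251 bp (chr4:119659709-119660356) had 14.5, 12.1 and 14.8 CPM in aged and 10.6, 7.18 and 9.40 CPM in young. Neither overlapped between ages, with log2 fold changes of 0.47 (SE 0.12, adjusted p = 0.0245) and 0.61 (SE 0.15; Benjamini-Hochberg adjusted p = 0.0256) in edgeR. The Guca2a call was lost without aged 2, aged 4, young 1 or young 4, and the Guca2b call without aged 1, aged 4 or young 2, in DESeq2 (adjusted p = 0.0759) and after thinning (0.36, adjusted p = 0.704). The other 2 tested peaks of Guca2a had 0.25 and -0.09 and those of Guca2b 0.03 and 0.30, none of them called. The promoter peaks of Guca2a and Guca2b had 0.34 and 0.18, both not called. The 250 bases before the RefSeq starts (GRCm38.p6; chr4:119637482-119637731, plus strand, and chr4:119658946-119659195, minus strand) are shown because each gene had a called upstream peak. Capitals mark AP-1, GATA, STAT and KLF/SP letters, spelled as above, on either strand.
Guca2a promoter: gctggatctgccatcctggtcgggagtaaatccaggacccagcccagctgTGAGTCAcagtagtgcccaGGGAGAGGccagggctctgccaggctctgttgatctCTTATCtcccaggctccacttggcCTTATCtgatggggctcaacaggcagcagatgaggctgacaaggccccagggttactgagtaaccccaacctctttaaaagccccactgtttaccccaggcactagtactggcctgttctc
Guca2b promoter: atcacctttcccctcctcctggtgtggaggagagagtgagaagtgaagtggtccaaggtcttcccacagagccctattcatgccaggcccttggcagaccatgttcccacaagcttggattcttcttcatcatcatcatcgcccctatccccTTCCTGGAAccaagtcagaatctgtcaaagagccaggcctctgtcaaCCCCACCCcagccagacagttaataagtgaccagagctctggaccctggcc

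The Guca2a promoter held 1 AP-1 and 2 GATA matches and the Guca2b promoter 1 STAT match, each beside 1 KLF/SP match. Of all promoter windows 7.81% hold the AP-1 letters, 7.45% the GATA letters and 8.29% the STAT letters.

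**Figure D3:**
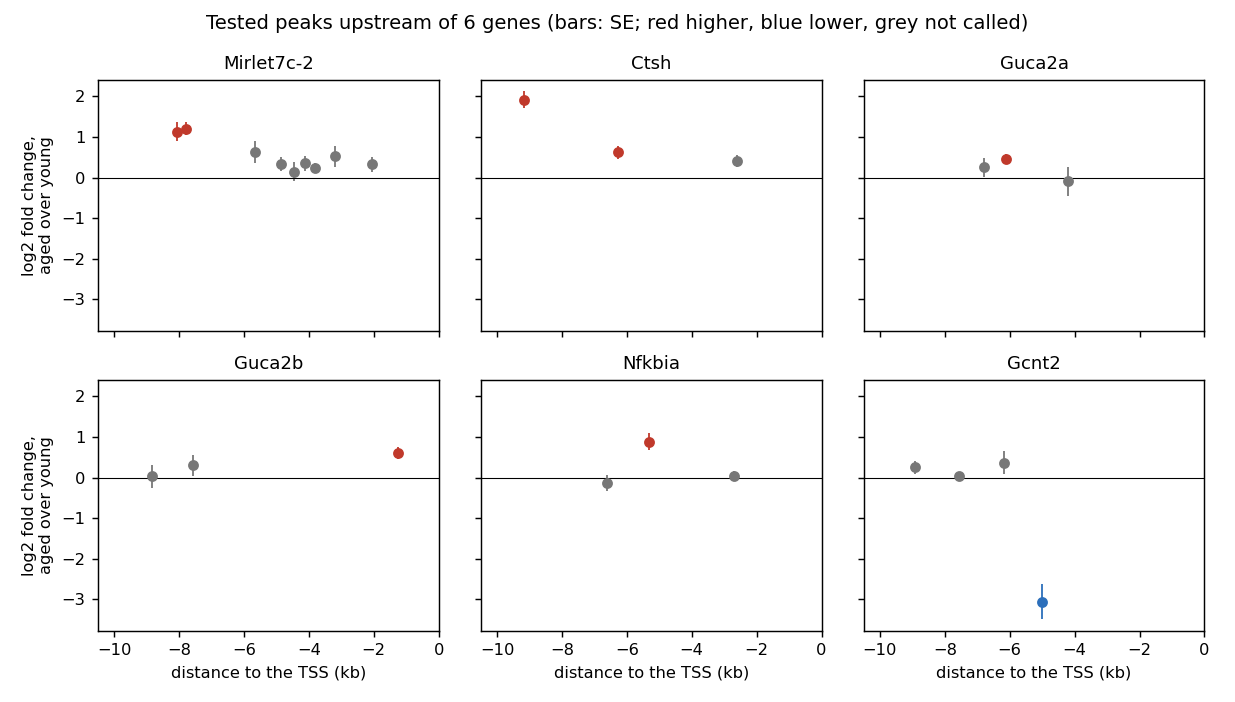
Log2 fold change (aged over young) with its SE for each tested near-upstream peak of 6 genes, against distance to the TSS in kb, with called peaks in red (higher in aged) or blue (lower). All 9 Mirlet7c-2 peaks lie above 0, while Nfkbia and Gcnt2 each have a single called peak beside others that were not called.

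Further called peaks, near genes of metabolism and stress signalling, were also chosen after their values were seen. Lipc, the hepatic lipase gene, had 6.92 ± 0.551 CPM in aged and 4.09 ± 0.195 CPM in young at 8099 bp, a log2 fold change of 0.77. Fosb, a subunit of the AP-1 factor, had 23.2 ± 3.98 CPM in aged and 15.8 ± 1.93 CPM in young, a change of 0.58. Adh1, an alcohol and retinol dehydrogenase gene, had 12.8 ± 2.89 CPM in aged and 8.04 ± 1.09 CPM in young, a change of 0.70. Epas1, the gene of the hypoxia-sensing factor HIF-2 alpha, had 2.46 ± 0.391 CPM in aged and 1.18 ± 0.178 CPM in young, a change of 1.05 (SD, n = 3 each). Their adjusted p were 0.0117, 0.0143, 0.0148 and 0.0399 in edgeR after Benjamini-Hochberg adjustment. Without aged 4 or young 2 the Lipc, Fosb and Epas1 calls were lost, and the Adh1 call without aged 1, young 1 or young 2; the Epas1 call was also lost without aged 2, young 1 or young 4, and in DESeq2 (adjusted p = 0.210), limma voom with quantile normalisation (0.0503), without TMM factors (0.0574) and with the filter of 30 counts (0.0508). After thinning, the adjusted p in edgeR were 0.608 for Lipc, 0.137 for Fosb and 0.333 for Adh1.

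Among the peaks that fell were those of developmental regulators and of a calcium channel. Onecut2, a transcription factor gene active in the duodenum and liver, had the lowest adjusted p of any protein-coding gene. Its only tested near-upstream peak, at 7180 bp, had 6.47, 4.47 and 4.54 CPM in aged, against 14.6, 17.5 and 14.8 CPM in young. The groups did not overlap, and the log2 fold change was -1.62 (SE 0.16; Benjamini-Hochberg adjusted p = 2.91e-08 in edgeR). The Onecut2 promoter peak had -0.16, at 37.0 CPM in aged and 41.2 CPM in young.

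Foxa1, which encodes a pioneer factor that opens chromatin in gut epithelium, had a peak at 2413 bp (chr12:57548485-57548584) with 0.801, 0.669 and 0.511 CPM in aged and 2.11, 2.92 and 2.55 CPM in young. All aged values were below all young ones, with a log2 fold change of -1.92 (SE 0.31; Benjamini-Hochberg adjusted p = 0.000152 in edgeR). The Foxa1 promoter peak had 0.17, at 42.9 CPM in aged and 37.7 CPM in young. Of 18 other tested peaks within 50 kb, 7 were below 0 and 1 was called lower.

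Trpv6, the calcium channel by which enterocytes take up dietary calcium, had a peak at 1907 bp (chr6:41638205-41638419) with 0.0616, 0.0418 and 0.170 CPM in aged and 1.14, 0.842 and 1.91 CPM in young. The aged counts were 1, 1 and 3, so the peak was close to undetected in aged, and the log2 fold change of -3.65 (SE 0.59; Benjamini-Hochberg adjusted p = 0.000170 in edgeR) rests on those few counts. All 3 other tested peaks within 50 kb were below 0, and 1 was called lower.

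Gcnt2, an enzyme that branches sugar chains on the cell surface, had 0.370, 0.0836 and 0.227 CPM in aged and 2.01, 1.88 and 1.27 CPM in young at 4997 bp, a log2 fold change of -3.06 (SE 0.43). The groups did not overlap, while its other 3 tested upstream peaks had 0.04 to 0.37. Only 2 of 12 other tested peaks within 50 kb were below 0. Alk, a receptor tyrosine kinase gene of neurons, fell by 2.04 on the log2 scale at 1042 bp. Zfp184, a zinc finger gene, fell by 1.33 to 3.03 ± 0.635 CPM in aged, against 7.91 ± 2.14 CPM in young. Rims4, a synaptic scaffold gene, fell by 1.34 to 2.36 ± 0.347 CPM in aged, against 6.06 ± 1.10 CPM in young (SD, n = 3 each). The peak before Mir7216, shown above at the Gm10505 start, had 3.94, 5.56 and 4.15 CPM in aged and 11.5, 10.6 and 11 CPM in young, with no overlap and a change of -1.26 (SE 0.16). The peak before Mir688 fell by 0.99, a call lost without young 2 and after thinning (adjusted p = 0.120 in edgeR). The adjusted p of these 6 ran from 5.75e-06 for Mir7216 to 0.00355 for Mir688 in edgeR after Benjamini-Hochberg adjustment.

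**Figure D4:**
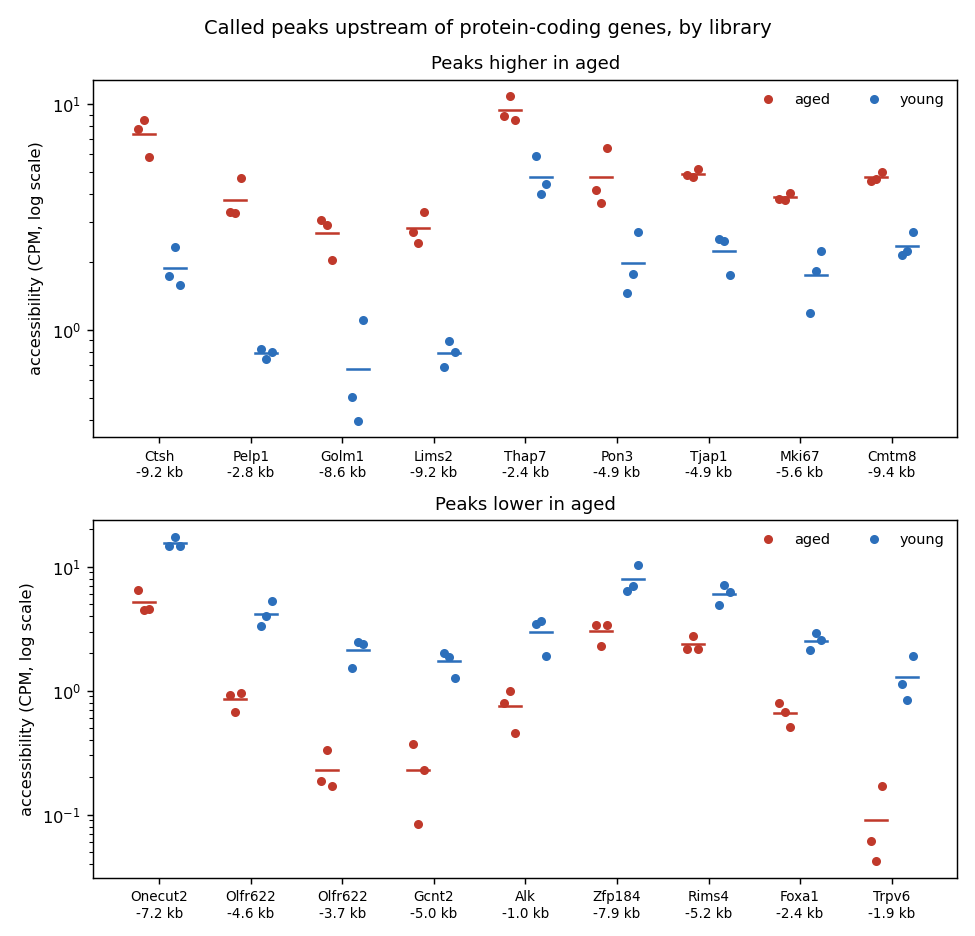
Accessibility (CPM, log scale) of called peaks nearest to named protein-coding genes in each library (points) with the group mean (line), aged in red left of young in blue; kb values give the distance upstream of the TSS. In each peak shown the 3 aged libraries lie on one side of the 3 young ones, as the choice of peaks without overlap requires.

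Several of the peaks with the smallest p lay upstream of pseudogenes or members of gene families, and whether their reads are shared with similar sequence was not tested. Near the pseudogene Gm5633, the peak at 7773 bp had 2.34, 3.22 and 1.42 CPM in aged and 19, 14.3 and 19.4 CPM in young (log2 fold change -2.86, SE 0.20). The Gm5633 peak at 2146 bp had -3.85 (SE 0.34). The olfactory receptor gene Olfr622 had -2.25 (SE 0.27) at 4562 bp and -3.07 (SE 0.40) at 3694 bp. Each of these peaks had as tested neighbours within 50 kb only the other Olfr622 peak and a further peak, which was also called lower. The pseudogene Gm8326 rose at both its peaks, by 1.71 (SE 0.21) and 1.87 (SE 0.34). The groups did not overlap in any of these 6 peaks, and the adjusted p ran from 5.25e-11 to 0.000786 in edgeR after Benjamini-Hochberg adjustment.

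In all, 10 genes had 2 called near-upstream peaks, and none had called peaks in both directions. Beside Ctsh, Mirlet7c-2, Gm8326, Gm5633 and Olfr622 these were 6030445D17Rik (1.65 and 2.11), Gm22959 (2.53 and 1.24), Gm5724 (1.38 and 2.11), Gm12802 (0.81 and 1.16) and Cdsn (1.04 and 1.22), the gene of a cell adhesion protein of the skin. Both Cdsn calls and both Gm12802 calls were lost without aged 4 or young 2, the outer Cdsn call also without aged 1 or young 1, and both Gm12802 calls also without young 1. The Gm12802 peak at 5752 bp was lost without aged 2 too, as was the Gm5724 peak at 2503 bp, which was also lost without young 2. In DESeq2 the calls of both Cdsn peaks, both Gm12802 peaks and the Gm5724 peak at 2503 bp were lost (adjusted p 0.0538 to 0.151). After thinning, those of the outer Cdsn peak (0.74, adjusted p = 0.711), both Gm12802 peaks (0.151 and 0.109), the other Gm5724 peak (0.129) and the 6030445D17Rik peak at 3184 bp (which then had 1.38) were lost in edgeR. The filter of 30 counts lost 1 Gm12802 call (adjusted p = 0.0539). Each called peak was set beside every other tested near-upstream peak of its gene, which gave 131 pairs, 98 of them with the same sign. The 20 pairs called in the same direction are the called peaks of these 10 genes, counted from both sides. Other peaks of genes with 2 called peaks also count 2 times. Slc26a2, a sulfate transporter gene, and Gm29560 had 8 near-upstream peaks each, with log2 fold changes of -0.22 to 0.25 and -0.23 to 0.12, and none was called.

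Promoters of the same genes were mostly not called. A tested promoter peak within 1000 bp of the same gene's TSS (the strongest one) was present for 47 of the 82 peaks that rose. Counted per upstream peak, the promoter was above 0 for 35 and called higher for 4 (8.51%). A promoter counts once for each called upstream peak of its gene, as the called Gm5724 promoter did for 2 peaks. Such a promoter peak was present for 17 of the 35 that fell, with 10 below 0 and 0 called in edgeR after Benjamini-Hochberg adjustment. The median promoter log2 fold changes were 0.11 and -0.05. Across 5544 near-upstream peaks with such a promoter, changes at both correlated weakly (Pearson's r 0.144, Spearman's rho 0.127), a description across peaks that share libraries. Of those 5544, 22 (0.397%) had a promoter called higher and 28 (0.505%) one called lower. Within 50 kb another peak of any class was called in the same direction for 33 of the 82 that rose and for 10 of the 35 that fell. Of all such neighbours, summed over the called peaks, 61.2% changed in the same direction around peaks that rose and 52.8% around peaks that fell. Among the same neighbours, 5.25% were called higher around peaks that rose (background 1.07%) and 3.99% lower around peaks that fell (background 0.528%). A peak near several called peaks counts for each, and close called peaks count each other, so these are not shares of distinct peaks.

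The strongest near-upstream peaks differed little between ages. Among the 8 with the highest mean CPM, those named here lay before Zfp869, Slc37a4 (the glucose-6-phosphate transporter), Pex26 (a peroxisome assembly factor), Foxj2, Gm38293, 2010010A06Rik and D130051D11Rik. The Zfp869 peak at 6142 bp (chr8:69716400-69717332) had 140, 126 and 127 CPM in aged and 132, 123 and 142 CPM in young, so the groups overlapped. The log2 fold changes of these 7 ran from -0.07 to 0.13, with SEs of 0.10 to 0.11, and none was called. At the bounds of the distance rule, the Pafah2 peak lay at exactly 10000 bp with a log2 fold change of 1.01, the Tmem98 peak just outside at 10003 bp had 0.17, and the Tfdp1 peak at 1001 bp had 0.10.

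Lists of genes for intestinal function, defence and neighbouring cell types held 5 called peaks, 1 higher and 4 lower. Of 378 entries in 13 lists 354 had a symbol in the annotation, and the lists held 260 near-upstream peaks with 241 tested. The share called was 2.07% of these 241 (background 1.60%), with 0.415% higher (background 1.07%) and 1.66% lower (background 0.528%). In 10 of the 13 lists no peak was called in edgeR after Benjamini-Hochberg adjustment over all peaks. The median log2 fold changes of the lists ran from -0.15 to 0.18, against -0.004 over all tested peaks.

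Nutrient and bile acid transport had 29 tested peaks, 2 called lower (6.90%, background 0.528%) and 0 higher (background 1.07%), with a median of -0.15. Beside Trpv6, the peptide transporter gene Slc15a1 had 0.740, 0.292 and 0.625 CPM in aged and 2.20, 0.941 and 1.43 CPM in young at 1403 bp, without overlap. Its log2 fold change was -1.54 (SE 0.40; Benjamini-Hochberg adjusted p = 0.0352 in edgeR), and the call was lost without aged 2, aged 4 or young 1, in DESeq2 (adjusted p = 0.194) and in limma voom (0.0677). The other tested Slc15a1 peak had -0.31 and was not called. The peak of the folate transporter gene Slc46a1 at 6489 bp had -0.45 (SE 0.18, Benjamini-Hochberg adjusted p = 0.367 in edgeR; -0.52 and 0.0115 with the replicate block), and its other 3 tested peaks had -0.13 to 0.19.

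Intestinal transcription factors had 28 tested peaks, 2 called lower (Onecut2 and Foxa1; 7.14%, background 0.528%) and 0 higher (background 1.07%), with a median of -0.01. Rxra, the retinoid X receptor, had 43.8 ± 2.04 CPM in aged and 37.2 ± 2.76 CPM in young at 5162 bp (SD, n = 3 each), a log2 fold change of 0.22 that was not called, and its other tested peak had 0.45, also not called.

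NF-kB, TNF and chemokine genes had 18 tested peaks, 1 called higher (5.56%, background 1.07%) and 0 lower (background 0.528%), with a median of 0.03. The called peak lay 5316 bp before Nfkbia, the gene of the NF-kB inhibitor I kappa B alpha, with 4.99, 6.10 and 5.45 CPM in aged and 3.52, 2.72 and 2.39 CPM in young. The groups did not overlap, with a log2 fold change of 0.89 (SE 0.20; Benjamini-Hochberg adjusted p = 0.00960 in edgeR), a call lost without aged 2 or young 2 and after thinning (adjusted p = 0.164). The other 2 tested Nfkbia peaks, at 6598 and 2695 bp, had -0.13 and 0.04, and the promoter peak 0.00. The TNF receptor gene Tnfrsf1b had 0.77 (SE 0.24) and 0.32 at its 2 tested peaks and the chemokine gene Cxcl2 -0.44 (SE 0.28) and 0.26, none of them called.

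**Figure D5:**
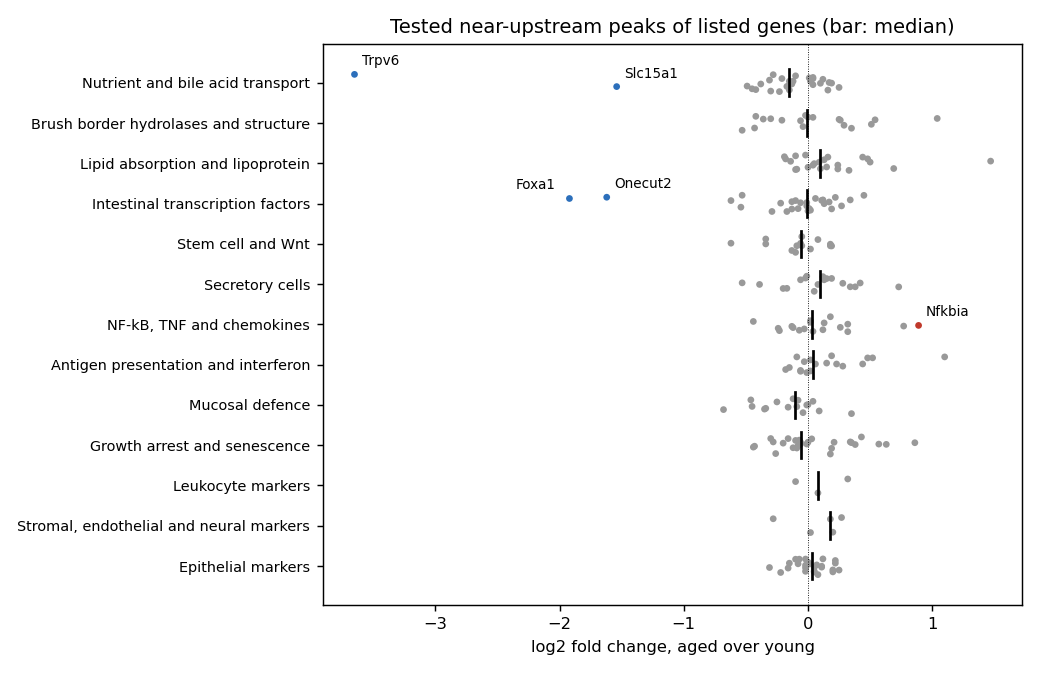
Log2 fold change (aged over young) of each tested near-upstream peak of the 13 gene lists, 1 point per peak, with the list median as a bar and called peaks in red (higher in aged) or blue (lower). The 5 called peaks are those of Trpv6, Slc15a1, Foxa1, Onecut2 and Nfkbia, and the medians lie between -0.15 and 0.18.

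The remaining lists had 0 called peaks in edgeR after Benjamini-Hochberg adjustment. Counts at an unadjusted p below 0.05, here and below, stand without the share over all tested peaks. They therefore cannot be read as above or below a background. Antigen presentation and interferon had 18 tested with a median of 0.04, a range of -0.18 to 1.10 and 4 at an unadjusted p below 0.05. In that list the MHC class II gene H2-Ab1 had 0.48 (SE 0.16), the interferon-induced Usp18 1.10 (SE 0.41) and 0.44 at its 2 peaks, and the class II regulator Ciita 0.52 (SE 0.22). Growth arrest and senescence had 27 tested, a median of -0.06 and 4 at an unadjusted p below 0.05. The urokinase receptor gene Plaur had 0.63 (SE 0.22) and 0.57 (SE 0.23) at its peaks, with 1 peak called without aged 1 (0.85, adjusted p = 0.0378 by the same edgeR test), and the stress cytokine gene Gdf15 had 0.86 (SE 0.37), 0.38 and 0.03 at its 3 peaks.

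Brush border hydrolases and structure had 18 tested, a median of -0.01 and 2 at an unadjusted p below 0.05. The aminopeptidase gene Enpep had 4 tested peaks with 1.04, 0.54, 0.51 and 0.04. Lipid absorption and lipoprotein had 23 tested, a median of 0.10 and 1 at an unadjusted p below 0.05, and the retinol-binding protein gene Rbp2 had 1.47 (SE 0.49) and the acyltransferase gene Mogat2 0.69 (SE 0.45) and -0.10 at its 2 peaks. Mucosal defence had 16 tested, a median of -0.11 and 2 at an unadjusted p below 0.05, with the goblet cell gene Retnlb at -0.68, -0.45 and -0.12 and the inflammasome gene Nlrp6 at -0.46, -0.08 and -0.01. Secretory cell genes had 18 tested, a median of 0.10 and 1 at an unadjusted p below 0.05, with the tuft cell channel Trpm5 at 0.73 and -0.39 and the lysozyme gene Lyz1 at 0.38 and 0.34. Stem cell and Wnt genes had 14 tested, a median of -0.05 and 0 at an unadjusted p below 0.05, with the Wnt ligand gene Wnt3 at -0.62 and -0.34, the receptor gene Fzd5 at 0.18 and the coreceptor gene Lrp5 at 0.19, 0.18 and -0.05.

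Near-upstream peaks of marker genes likewise held 0 calls and 0 at an unadjusted p below 0.05. The epithelial list had 26 tested peaks with a median of 0.03, among them 5 of Krt8 with 0.05 to 0.22, 3 of Cldn3 with 0.01 to 0.20 and 2 of Cldn7 with -0.02 and 0.25. The leukocyte list had 3 tested peaks (Cd3e 0.32, Spi1 0.08 and Csf1r -0.10), and the stromal, endothelial and neural list 5 with a median of 0.18 (Lyve1 -0.28 and 0.02, Pdgfrb 0.27 and Acta2 0.20).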

How the data were processed

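The deposited values were raw counts per consensus peak, and a companion table made by the authors gave each peak's position (GRCm38, counted from 1), class, nearest gene and distance to its TSS. The 24 sample records describe 6 libraries on 4 lanes each, and the lanes of a library share 1 column of counts. The submitters' processing notes name Trim Galore 0.6.4, BWA 0.7.17-r1188, MACS2 2.2.7.1 and featureCounts 2.0.1; their settings and any Tn5 shift: not given in the sources used here. Counts were filtered (filterByExpr), scaled by TMM (a trimmed mean of log ratios between libraries) and tested with edgeR 4.0.16 in R 4.3.3 (robust quasi-likelihood test, age as the only term, Benjamini-Hochberg over all 129588 tested peaks, threshold 0.05), a procedure tested on simulated data. The log2 fold changes are aged over young, SEs are those implied by the test statistic, and CPM are counts divided by TMM-scaled totals, as edgeR's cpm function gives them. Shares were compared by exact permutation (SciPy 1.17.1).

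Peaks were named by rule: in each direction the 5 calls without overlap between ages that had the smallest p, and the 10 nearest to named protein-coding genes; the 8 strongest; genes with 2 called peaks or the most peaks; up to 3 per list; and those at the distance bounds. Some of these are not reported here. Mir688 and Guca2a, Guca2b, Lipc, Fosb, Adh1 and Epas1 were added after their values were seen. The class of peaks, the lists and the rules were chosen with earlier results of these data known.

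Same-numbered libraries of both ages deviated together (r = 0.236, 0.182 and 0.123 for numbers 1, 2 and 4, all above 0.1). Other pairs had -0.194 to 0.0287, but deviations from the mean of an age cancel within it, which pushes other pairs down. The number was taken as a possible pairing from the data only, and the labels do not say what it marks. The main fit leaves it out, so its p-values, SEs and calls treat the libraries as unpaired. Alternatives were other scalings, filters, tests and thresholds, the replicate block, thinning to the shallowest library, a shorter window and leaving out each library. No genome sequence was used, so motifs were searched in RefSeq windows only.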

Additional observations from a re-analysis of the deposited data

How the results depend on the processing

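The counts of near-upstream intergenic peaks called higher and lower in aged, 82 and 35, were 174 and 90 with the replicate block, and 28 and 12 with all libraries thinned to the shallowest (24 and 12 shared with the unthinned calls). DESeq2's Wald test called 52 higher, an adjusted p of 0.01 left 42 higher, and the window of 1000 to 5000 bp held 32 higher and 18 lower. A filter of at least 30 counts in 3 libraries tested 6317 near-upstream peaks and called 62 higher and 10 lower. The stricter threshold and the smaller window can only remove calls, and for the other settings the cause was not tested. Leaving out 1 library gave 45 (without young 2) to 91 higher and 26 to 40 lower. The difference in the share of counts, 0.0361 points, ran from -0.0545 (without young 1) to 0.0997, and the log2 ratio difference of 0.0005 from -0.0147 (without young 4) to 0.0142, with -0.0083 without aged 1 and -0.0001 after thinning, so the sign of neither held in every alternative. The block left both differences as they were (exact within-number p = 1). The smallest p of the exact test of 3 against 3 libraries is 0.1, and fewer arrangements remain within numbers. Neither test could therefore reach 0.05, and the absence of a call carries no information on the pairing. Of 49 named peaks called, 28 kept the call in every alternative in which they were tested, 21 lost it in at least 1 and 0 reversed, and the block lost none of the 117 calls. The count filter left 1347 near-upstream peaks untested and young 4 had a median of 13 counts per peak; the part of depth in the calls was not tested beyond the thinning.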
